A study of Danio rerio with 4 samples.

Results

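The Notch genes described here are the ligands (Delta and Jagged), the receptors, the Fringe enzymes, the Nrarp inhibitors and the Her and Hey repressors of the zebrafish (Danio rerio). They were chosen by gene name in the deposited table, which gave 39 of 26267 genes, with 73 transcripts and 46 gene IDs. Bulk RNA sequencing was done on neural crest cells that were sorted by their sox10:DsRed fluorescence, 20 hours after fertilization (20 hpf). The 2 nr2f mutant samples carry mutant nr2f5, and their titles also name nr2f2, whose genotype the labels list as unknown; these are set against 2 wild-type samples. All 4 samples carry the reporter, and the pools held 88 and 35 mutant embryos and 110 and 120 wild-type embryos, not tied to replicate numbers in the sources used here.

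Notch signalling passes between touching cells. A Delta or Jagged ligand on one cell binds a Notch receptor on its neighbour, the receptor is cut, and its freed inner part joins the DNA-binding protein Rbpj to switch on target genes, among them many Her and Hey genes, which encode bHLH repressors. Fringe enzymes add sugars to the receptors and so tune their response to each ligand class, and Nrarp proteins dampen the signal. In the zebrafish head, Jagged-Notch signalling is known for patterning the dorsal parts of the pharyngeal arches, which the cranial neural crest fills. Elsewhere Notch keeps neural progenitors undifferentiated, paces the segmentation of the body axis and guides arterial fate.

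Levels are TPM (transcript abundances brought to an equal sum per sample), which also allow for transcript length and therefore can be set side by side between genes. They keep no read depth. The mutant libraries had 13412 and 13186 genes that reached 1 TPM, and the wild-type libraries 14519 and 14333. The mutated gene nr2f5 stood at 46.5 and 47.1 TPM in mutant cells and 579 and 559 TPM in wild-type cells; nr2f2 was at 67.2 and 51.7 TPM in mutant cells and 73.5 and 59.3 TPM in wild-type cells. The crest genes sox10, foxd3, crestin and tfap2a were at 145 TPM or more, except foxd3 at 121 and 111 TPM in the wild-type samples. By the limma test used below, 3 of 9 neural crest markers rose and 1 fell (0 to 5 and 0 to 1 with 1 sample left out), 1 of 8 neuron markers fell, and 1 of 7 epidermis markers fell (0 without mutant sample 1, mutant sample 2 or wild-type sample 2, and 5 without wild-type sample 1). Beside these, 1.13% of all genes tested rose and 2.95% fell. Of the 8 neuron markers, 3 were higher and 1 was lower in mutant cells without overlap. Among all genes tested these shares were 18.2% and 34.9%. The sort also held RNA with markers of other cells, which is given beside the results it touches. In such sorted pools, fewer cells of a type and less RNA per cell cannot be told apart.

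None of the 39 Notch genes passed the test for a difference between mutant and wild-type cells (limma on log2(TPM + 1), adjusted p under 0.05). The 30 with a mean of 1 TPM or more were tested within all 14217 such genes, of which 4.08% were called, 1.13% upward and 2.95% downward. The smallest adjusted p was 0.062, for notch1a. An unadjusted p under 0.05 was reached by 9 of the 30, 4 higher and 5 lower in mutant cells. Of all genes tested, 20.4% reached it, 6.05% higher and 14.3% lower. Of the 9, jag1b reached a mean of 1 TPM only through the wild-type samples, and her5 only through the mutant samples. Groups were free of overlap for 16 of the 30, against 53.2% of all genes tested. The mutant samples were the lower ones without overlap in 11 of the 30, against 34.9% of all genes tested, and the higher ones in 5 of the 30, against 18.2%. The median log2 fold change of the 30 was -0.52, and that of all genes tested was -0.16.

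By role, all 10 tested ligand, receptor and Fringe genes had a log2 fold change below 0, as did both Nrarp genes, but with quantile normalization jag2b and nrarpb turned above 0. The 16 tested Her genes had 7 above and 9 below 0, and the 2 tested Hey genes had 1 each way. Of all genes tested, 63.3% had a log2 fold change below 0. Median-ratio scaling moved the median of all genes to 0.0014 and turned 0 of the 30 signs; quantile normalization moved it to 0.03. Genes at low levels lay lower in the mutant samples throughout the table: among genes at 1 to under 10 TPM the median log2 fold change was -0.33 and for 40.4% the mutant samples were lower without overlap. In that class stood 13 Notch genes, with a median of -0.55, and 8 of them were lower in mutant cells without overlap. Among genes at 10 to under 100 TPM the median was -0.11, and for 33% the mutant samples were lower without overlap. The 15 Notch genes of that class had a median of -0.53, and 3 of them were lower in mutant cells without overlap. At 100 TPM or more, 2 Notch genes had a median of 0.31, beside 0.07 for all such genes.

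**Figure D1:**
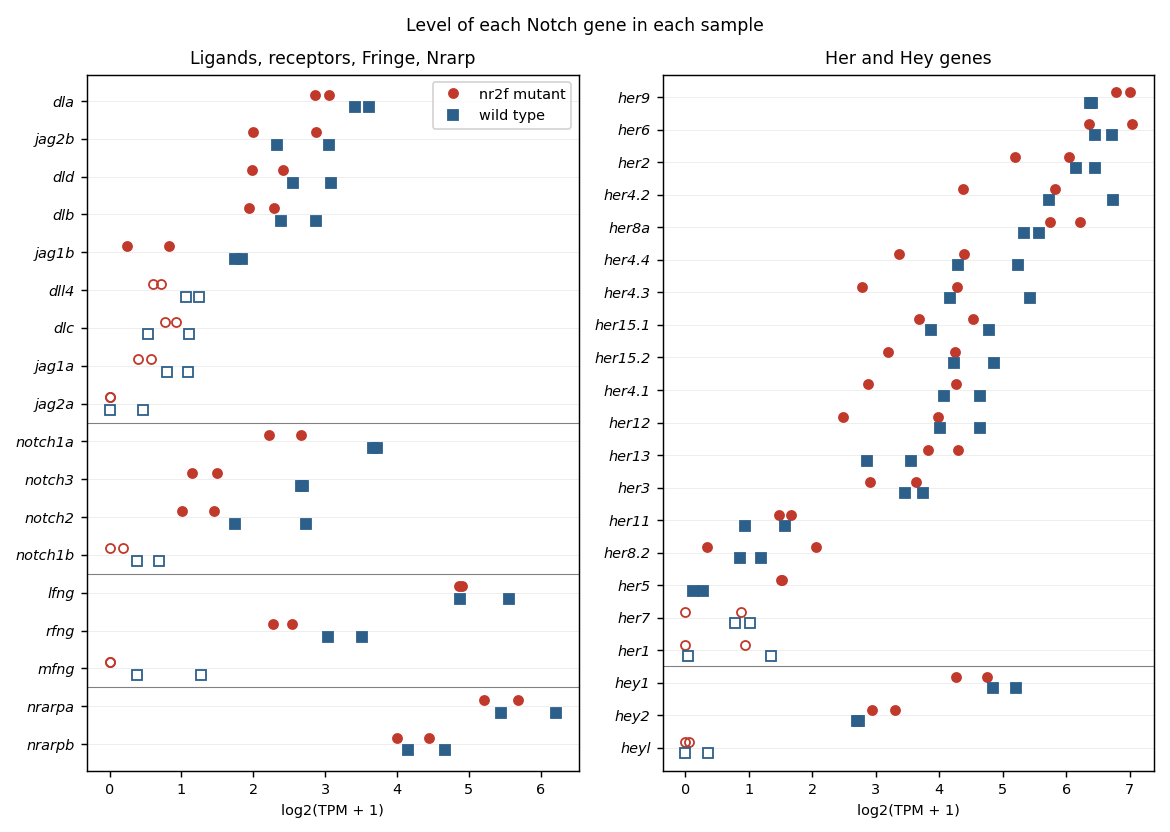
Level of each of the 39 Notch genes in each sample, as log2(TPM + 1); red circles are the 2 nr2f mutant samples and blue squares the 2 wild-type samples, and open symbols are the 9 genes with a mean under 1 TPM, which were not tested. The highest value of a receptor or Delta gene is 12.2 TPM, for notch1a in wild-type sample 1, and her9 and her6 sit at the high end.

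The receptor genes had the lowest median of any role, at -1.26 on the log2 scale over the 3 tested. The most abundant, notch1a (ENSDARG00000103554), whose receptor acts in neural and somite patterning, stood at 5.35 and 3.64 TPM in mutant samples 1 and 2 and 12.2 and 11.8 TPM in wild-type samples 1 and 2. The groups did not overlap, and both wild-type samples were close to each other. The log2 fold change was -1.26 ± 0.32 (limma, SE, n = 2 per group, adjusted p = 0.062), with a 95% interval of -1.98 to -0.54. It remained uncalled in all 14 alternatives, with an adjusted p of 0.054 to 0.34.

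The receptor gene notch3 (ENSDARG00000052139) stood at 1.81 and 1.23 TPM in mutant cells and 5.44 and 5.36 TPM in wild-type cells. Its groups did not overlap either, and the log2 fold change was -1.36 ± 0.37 (limma, adjusted p = 0.079). The gene notch2, whose receptor acts with Jagged1b in dorsal arch patterning, stood at 1.02 and 1.75 TPM in mutant cells and 5.64 and 2.34 TPM in wild-type cells. Here wild-type sample 1 stood apart from the other 3 samples, and the log2 fold change was -1.0 ± 0.45 (limma, adjusted p = 0.24), or -0.51 without wild-type sample 1. The gene notch1b, active in blood vessels, was listed at 0 and 0.139 TPM in mutant cells and 0.61 and 0.298 TPM in wild-type cells, under the level tested.

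Summed over the 4 receptor genes, the level was 8.18 and 6.75 TPM in mutant cells and 23.9 and 19.8 TPM in wild-type cells. Within wild-type cells notch1a was the highest receptor gene in both samples and notch1b the lowest; notch3 and notch2 overlapped. Within mutant cells notch1a was again the highest, and notch3 and notch2 again overlapped. Of the 3 transcripts of notch1a with a value, the main one held 44.5% and 70.1% of the gene in mutant cells and 58.1% and 41.2% in wild-type cells. The transcript ENSDART00000151019 was at 2.17 and 0 TPM in mutant cells and 2.09 and 4.32 TPM in wild-type cells, so the makeup of the gene overlapped between groups.

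Endothelial markers, whose cells also use Notch receptors, lay lower in the same mutant samples. Of 14 listed endothelial genes, 13 were tested, 1 fell (stab2, a scavenger receptor of vessels) and 0 rose, with a median log2 fold change of -0.81 (-0.43 without wild-type sample 1 and -1.53 without wild-type sample 2). Their summed level was 85.6 and 79.6 TPM in mutant cells and 179 and 97.3 TPM in wild-type cells. The defining genes kdrl and cdh5 were at 0.908 and 0.173 TPM and at 0.531 and 0.956 TPM in mutant cells, and at 3.94 and 2.02 TPM and at 3.09 and 1.25 TPM in wild-type cells. Of the 13, 8 were lower in mutant cells without overlap, beside 34.9% of all genes tested, and 5 overlapped. The 2 most abundant, ramp2 (log2 fold change -0.18) and lmo2 (0.01), were among those that overlapped. With mutant sample 1 or mutant sample 2 left out, stab2 was no longer called (adjusted p = 0.067 and 0.083), 4 of the list fell without wild-type sample 2, and 2 fell with median-ratio scaling. Muscle and myeloid markers lay lower too, with 3 of 9 and 5 of 7 tested genes falling (1 muscle gene without mutant sample 2 and 5 without mutant sample 1 or wild-type sample 1; 3 myeloid genes without mutant sample 1 and 6 without wild-type sample 1). Across all genes tested, 2.95% fell. The part of endothelial, muscle or myeloid cells in the receptor values was not tested.

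The 5 Delta ligand genes ranged over 0.448 to 11.2 TPM across genes and samples. The gene dla, a neurogenic ligand, stood at 7.32 and 6.28 TPM in mutant cells and 9.66 and 11.2 TPM in wild-type cells (log2 fold change -0.55 ± 0.30, limma, n = 2 per group, adjusted p = 0.34). For dld, at 2.96 and 4.31 TPM in mutant cells and 4.90 and 7.43 TPM in wild-type cells, the log2 fold change was -0.62. For dlb, at 2.83 and 3.90 TPM in mutant cells and 4.22 and 6.31 TPM in wild-type cells, it was -0.51. In all 3 genes the mutant samples were lower without overlap, with adjusted p-values of 0.34 to 0.46. The arterial ligand gene dll4 was at 0.639 and 0.516 TPM in mutant cells and 1.37 and 1.08 TPM in wild-type cells. The somite ligand gene dlc was at 0.713 and 0.90 TPM in mutant cells and 0.448 and 1.14 TPM in wild-type cells; both had a mean under 1 TPM and were not tested.

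Among the Jagged genes, jag1b (ENSDARG00000013168), the ligand gene of dorsal arch patterning, stood at 0.772 and 0.188 TPM in mutant cells and 2.37 and 2.60 TPM in wild-type cells. Both wild-type values were close together and above both mutant values. The mutant mean was 0.48 TPM, so jag1b reached the tested mean of 1 TPM only through its wild-type values. The log2 fold change was -1.26 ± 0.44 (limma, adjusted p = 0.14), with a 95% interval of -2.24 to -0.29; at levels this near the pseudocount, it ran from -0.45 with a pseudocount of 5 TPM to -2.36 with 0.1 TPM. The paralog jag1a was at 0.319 and 0.49 TPM in mutant cells and 1.14 and 0.737 TPM in wild-type cells, under the level tested. The gene jag2a had 0 in both mutant samples and in wild-type sample 1, and 0.375 TPM in wild-type sample 2.

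The most abundant Jagged gene, jag2b, a ligand gene with known roles beyond the arches, did not share that pattern. It stood at 6.36 and 2.99 TPM in mutant cells and 7.27 and 4.05 TPM in wild-type cells, so its groups overlapped (log2 fold change -0.25 ± 0.42, limma, adjusted p = 0.76), and its sign turned with quantile normalization (0.09). A minor transcript of jag2b, ENSDART00000049586, was at 8.2e-05 and 0.034 TPM in mutant cells and 0.819 and 1.66 TPM in wild-type cells, while the main transcript, ENSDART00000024922, was at 6.36 and 2.95 TPM in mutant cells and 5.87 and 2.09 TPM in wild-type cells. The main transcript therefore held 100% and 98.8% of jag2b in mutant cells and 80.7% and 51.7% in wild-type cells. The minor transcript had a mean of 0.63 TPM, under the level tested, so these shares are uncertain. Tested alone, the main transcript was not called (limma, log2 fold change 0.23, adjusted p = 0.83). Summed, the Jagged ligands were at 7.45 and 3.67 TPM in mutant cells and 10.8 and 7.76 TPM in wild-type cells.

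Fringe genes differed widely in level. The gene lfng, whose product is the Fringe of the segmentation clock in mouse and chick, stood at 28.1 and 29.0 TPM in mutant cells and 46.0 and 28.5 TPM in wild-type cells; its groups overlapped (log2 fold change -0.33 ± 0.25, limma, adjusted p = 0.48; 0.00 without wild-type sample 1). The gene rfng stood at 3.83 and 4.81 TPM in mutant cells and 10.4 and 7.19 TPM in wild-type cells, without overlap (log2 fold change -0.87 ± 0.34, limma, adjusted p = 0.19). The gene mfng had a listed value of 0 in each mutant sample, against 0.308 and 1.41 TPM in wild-type cells, under the level tested.

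The feedback inhibitor genes nrarpa and nrarpb, which are themselves Notch targets, overlapped between groups. The gene nrarpa stood at 50.6 and 35.9 TPM in mutant cells and 73.4 and 42.6 TPM in wild-type cells (log2 fold change -0.38 ± 0.28, limma, adjusted p = 0.46; 0.00 without wild-type sample 1). The gene nrarpb stood at 15.1 and 20.8 TPM in mutant cells and 24.4 and 16.8 TPM in wild-type cells (log2 fold change -0.18 ± 0.29, limma, adjusted p = 0.75), and its sign turned with quantile normalization (0.01). Of the 2 gene IDs named nrarpa, ENSDARG00000111485 had a listed value of 0 in each mutant sample, against 10.5 and 2.63 TPM in wild-type cells; its single transcript had the smallest adjusted p of the 41 Notch transcripts tested one by one, at 0.077 (limma; chosen after its values were seen). Reads shared between copies of a gene on separate sequences can be split between them, so this value is uncertain.

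**Figure D2:**
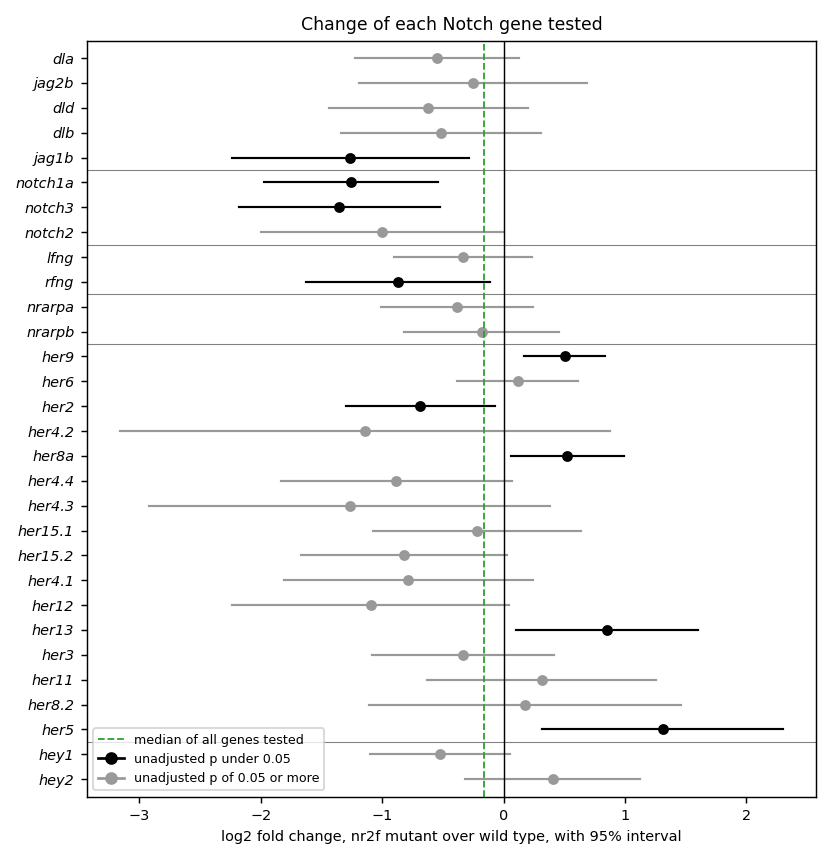
Log2 fold change, nr2f mutant over wild type, of the 30 Notch genes tested, grouped by role, with 95% intervals from limma; black marks an unadjusted p under 0.05 and the dashed green line is the median of all genes tested, -0.16. The receptor genes and jag1b have the lowest values among the ligands, receptors, Fringe and Nrarp genes, and her9, her8a, her13 and her5 lie above 0.

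The Her genes are given in 2 sets. Genes of the Hes5 type (her2, her12, the her4 copies and the her15 copies), which are direct Notch targets in neural progenitors, summed to 101 and 232 TPM in mutant cells and 220.4 and 373 TPM in wild-type cells. The other 10 Her genes, led by her9 and her6, summed to 297 and 339 TPM in mutant cells and 240.1 and 250.3 TPM in wild-type cells. The first sum overlapped between groups, and the second was higher in both mutant samples than in either wild-type sample. The split by family was made after the values were seen.

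The gene her9, a Hes1-related repressor gene that joins the gene IDs ENSDARG00000056438 and ENSDARG00000115775, had the highest mean of the Notch genes, at 109 and 128 TPM in mutant cells and 83.6 and 82.1 TPM in wild-type cells. Both mutant samples lay above both wild-type samples, which were close together. The ID ENSDARG00000056438 alone was at 96.4 and 110.4 TPM in mutant cells and 73.4 and 65.9 TPM in wild-type cells. The ID ENSDARG00000115775 overlapped between groups, at 12.8 and 17.1 TPM in mutant cells and 10.2 and 16.3 TPM in wild-type cells. For both IDs together the log2 fold change was 0.50 ± 0.15 (limma, n = 2 per group, adjusted p = 0.098), with a 95% interval of 0.17 to 0.84. It was called with median-ratio scaling (0.69, adjusted p = 0.042), and its adjusted p ran from 0.042 to 0.48 over 14 alternatives. Its paralog her6, of the same class and likewise of 2 gene IDs, stood at 81.4 and 130.2 TPM in mutant cells and 86.2 and 104 TPM in wild-type cells, with mutant sample 1 lowest and mutant sample 2 highest (log2 fold change 0.12 ± 0.22, limma, adjusted p = 0.79). Without mutant sample 2 the her6 value turned to -0.22, and without wild-type sample 1 to -0.02.

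The gene her8a stood at 73.0 and 52.7 TPM in mutant cells and 46.6 and 39.4 TPM in wild-type cells, without overlap (log2 fold change 0.52 ± 0.21, limma, adjusted p = 0.19). Its 2 transcripts kept nearly the same shares, the main one holding 71.8% and 72.0% in mutant cells and 74.9% and 73.8% in wild-type cells. The gene her13 stood at 18.5 and 13.2 TPM in mutant cells and 10.8 and 6.22 TPM in wild-type cells, also without overlap (log2 fold change 0.85 ± 0.33, limma, adjusted p = 0.19). With median-ratio scaling the adjusted p of her8a was 0.053 and that of her13 was 0.062.

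The midbrain-hindbrain boundary gene her5 was among the lowest Her genes tested, at 1.84 and 1.87 TPM in mutant cells and 0.0896 and 0.214 TPM in wild-type cells. The mutant values were nearly equal and both stood above the wild-type values (log2 fold change 1.31 ± 0.45, limma, adjusted p = 0.14; 0.41 with a pseudocount of 5 TPM and 3.0 with 0.1 TPM). It was not tested at a mean of 5 TPM or more, nor without mutant sample 1 or 2, which took its mean under 1 TPM. Its direct neighbour her11, active in the same boundary region, stood at 2.16 and 1.79 TPM in mutant cells and 0.925 and 1.97 TPM in wild-type cells; its groups overlapped.

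Of the Hes5-type genes, her2 had the highest level in mutant sample 1, at 35.5 and 65.1 TPM in mutant cells and 70.5 and 86.5 TPM in wild-type cells. Its groups did not overlap (log2 fold change -0.69 ± 0.27, limma, adjusted p = 0.20). The gene her12 stood at 4.57 and 14.8 TPM in mutant cells and 15.1 and 23.9 TPM in wild-type cells, with mutant sample 2 just under wild-type sample 1 (log2 fold change -1.09 ± 0.49, limma, adjusted p = 0.26). Mutant sample 1 was the lowest and wild-type sample 2 the highest for both genes. Without mutant sample 1 the log2 fold changes were -0.26 for her2 and -0.34 for her12, and without mutant sample 2 they were -1.12 and -1.85.

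The her4 genes are tandem copies of high similarity, so the split of reads among them is uncertain and their sum is the safer value. Summed over her4.1, her4.2, her4.3 and her4.4, the level was 41.2 and 112 TPM in mutant cells and 103 and 209 TPM in wild-type cells. The groups overlapped, with mutant sample 2 just above wild-type sample 1. Fitted as 1 gene, the log2 fold change was -1.10 ± 0.75 (limma, adjusted p = 0.52), with a 95% interval of -3.66 to 1.46, which spans 0. The single copies had log2 fold changes of -0.78 for her4.1, -1.14 for her4.2, -1.27 for her4.3 and -0.88 for her4.4. Without mutant sample 1 they were -0.09, -0.42, -0.52 and -0.38, and without mutant sample 2 they were -1.48, -1.87, -2.02 and -1.39. The name her4.2 joined 2 gene IDs, and in each sample both carried RNA.

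The her15 copies are likewise near-identical, and summed to 19.9 and 40.2 TPM in mutant cells and 31.4 and 54.3 TPM in wild-type cells (log2 fold change -0.53 ± 0.38, limma, adjusted p = 0.46). The neural plate repressor gene her3 stood at 6.49 and 11.4 TPM in mutant cells and 9.99 and 12.5 TPM in wild-type cells; its groups overlapped (log2 fold change -0.33, adjusted p = 0.61; 0.03 without mutant sample 1). The gene her8.2 overlapped as well, at 3.16 and 0.269 TPM in mutant cells and 0.813 and 1.28 TPM in wild-type cells. The segmentation clock genes her1 and her7 were under 1 TPM on average and not tested: her1 was at 0.92 and 0 TPM in mutant cells and 0.032 and 1.54 TPM in wild-type cells; her7 was at 0.825 and 0 TPM in mutant cells and 1.03 and 0.726 TPM in wild-type cells.

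Wild-type sample 2 was the highest and mutant sample 1 the lowest for 9 of the 16 tested Her genes, against 7.19% of all genes tested. These 9 were her3 and the neighbouring genes her2, her12 and the her4 and her15 copies, and the order was chosen after the values were seen. Because the her4 copies and the her15 copies are near-identical, with an uncertain split of reads, the 9 are not separate observations. In the RefSeq annotation of the GRCz12tu assembly, 14 of the 39 Notch genes lie directly next to another of them, in 5 runs: her12 with the her4 copies, her2 with the her15 copies, her5 with her11, her8.2 with her13, and her1 with her7. Within these runs her12, the her4 copies, her2 and the her15 copies all had negative log2 fold changes. Those of her5, her11, her8.2 and her13 were all positive. None was called in the main fit, and the groups of her11, her8.2 and the her4 and her15 copies overlapped. The value of her8.2 turned to -0.03 with a pseudocount of 0.1 TPM, and that of her11 was 4.8e-04 without wild-type sample 1. The gene her15.1 turned positive without mutant sample 1 (0.21) or wild-type sample 2 (0.23).

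**Figure D3:**
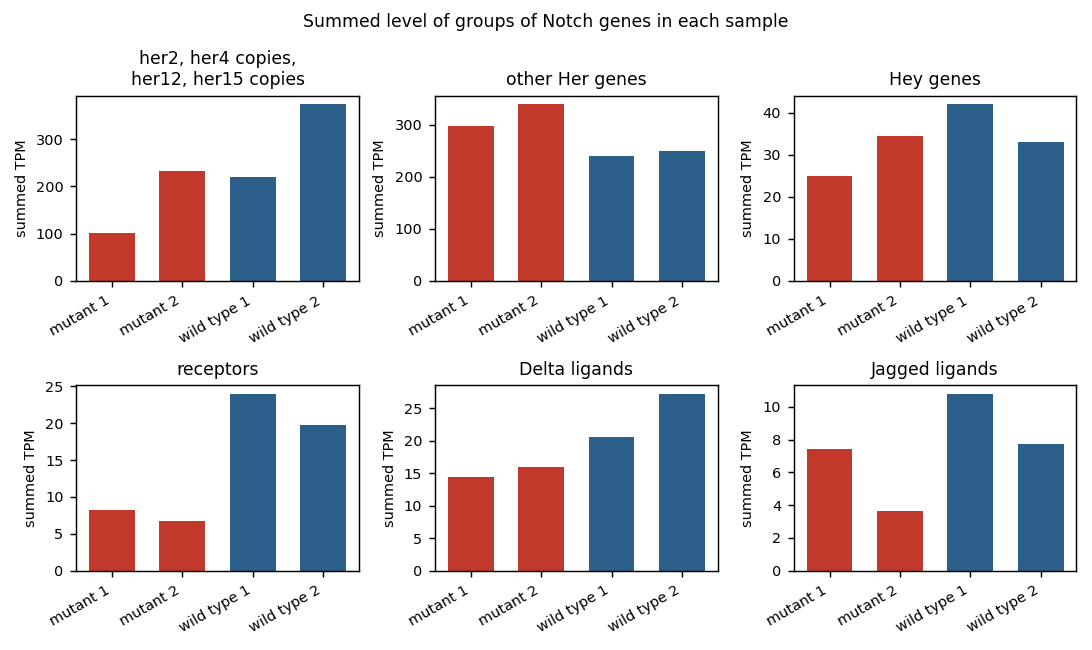
Summed TPM of groups of Notch genes in each sample, with the mutant samples in red and the wild-type samples in blue. The Hes5-type genes lie at 101 and 232 TPM in mutant cells and 220.4 and 373 TPM in wild-type cells, with mutant sample 2 and wild-type sample 1 close together, whereas the receptors lie at 8.18 and 6.75 TPM in mutant cells and 23.9 and 19.8 TPM in wild-type cells.

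Hes5-type genes are best known from progenitors of the central nervous system. Of the 12 listed progenitor genes, 11 were tested and 0 were called (0 also at an unadjusted p under 0.05). Log2 fold changes lay above 0 for 6 of them and below 0 for 5. The order with wild-type sample 2 highest and mutant sample 1 lowest needs a log2 fold change of 0 or below. So 6 of the 11 could not have it. Beside 7.19% of all genes tested, 0 of the 11 progenitor genes held it, a count too near that share to set them apart. Their summed level was 447 and 272 TPM in mutant cells and 356 and 264 TPM in wild-type cells. None was at 0 in all samples, and sox2 was at 47.0 and 31.6 TPM in mutant cells and 34.8 and 18.4 TPM in wild-type cells. The 2 most abundant were sox3 (log2 fold change -0.02) and fabp7a (0.33). Without overlap, pax6a (-0.97) and pax6b (-0.58) were lower and fabp7a was higher in mutant cells, and 8 of the 11 overlapped. Presomitic mesoderm markers summed to 13.6 and 12.2 TPM in mutant cells and 18.8 and 11.0 TPM in wild-type cells, with mespba and mespbb listed at 0 in every sample. Otic markers summed to 82.7 and 110.4 TPM in mutant cells and 100.6 and 124 TPM in wild-type cells. Of that, dlx5a, which is also an arch gene, made up 37.1 and 76.8 TPM in mutant cells and 51.8 and 87.5 TPM in wild-type cells. Of 6 otic genes tested, 0 were called, and 4 had a log2 fold change above 0 and 2 below (median 0.33). Without overlap, 3 were higher and 1 was lower in mutant cells, beside 18.2% and 34.9% of all genes tested. The order with wild-type sample 2 highest and mutant sample 1 lowest was held by 3 of 7 myeloid and 2 of 7 epidermis markers. It was held by 1 of 13 endothelial markers and 0 of 9 skeletal muscle markers, counts near the 7.19% of all genes tested. All 9 muscle markers had a log2 fold change below 0. The myeloid markers summed to 18.2 and 30.2 TPM in mutant cells and 154 and 244 TPM in wild-type cells. Epidermis markers summed to 514 and 388 TPM in mutant cells and 493 and 2732 TPM in wild-type cells. Skeletal muscle markers summed to 224 and 104 TPM in mutant cells and 624 and 2018 TPM in wild-type cells. In each of these lists the sum was highest in wild-type sample 2. The part of these cells in the Her values was not tested.

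Of 14 tested patterning genes of the arches, where Jagged-Notch signalling acts, 9 had wild-type sample 2 highest and mutant sample 1 lowest. Of all genes tested, 7.19% had this order. It was taken from the Her genes after their values were seen, and was then looked up in each list. Of these 14 arch genes, 10 had a log2 fold change below 0, which that order needs, and 4 lay above 0. Their list had 5 falls and 0 rises, and prrx1b, dlx4b, dlx3b and dlx2a had the smallest p; the largest change among these was that of prrx1b, a homeobox gene of ectomesenchyme, with 2.36 and 4.09 TPM in mutant cells and 45.5 and 82.4 TPM in wild-type cells. The log2 fold changes of the 4 were -3.91, -2.59, -2.12 and -0.63 (limma, adjusted p = 6.2e-04, 0.0069, 0.0075 and 0.033). Across all genes tested, 2.95% fell. The other fall was that of prrx1a (log2 fold change -0.93, limma, adjusted p = 0.039). Its value ran from -1.20 to -0.66 with 1 sample left out, where its call was not kept throughout. With median-ratio scaling 2 of the 5 fell, and dlx3b (limma, adjusted p = 0.058), dlx2a (0.21) and prrx1a (0.14) were no longer called. With 1 sample left out 2 to 6 of the list fell: dlx4b lost its call without mutant sample 1 (0.070) or mutant sample 2 (0.059), and dlx2a without mutant sample 1 (0.19), mutant sample 2 (0.061) or wild-type sample 2 (0.068). The Bmp antagonist gene grem2b, a dorsal arch gene that responds to Jagged-Notch signalling, was at 65.1 and 129 TPM in mutant cells and 153 and 189 TPM in wild-type cells; its log2 fold change of -0.88 missed the threshold (adjusted p = 0.23) but passed without mutant sample 2 (-1.37, adjusted p = 0.031), and it was picked with its values in view. Of the 4 genes above 0, msx1a (0.57) and twist1b (0.51) were higher in mutant cells without overlap. The other 2, dlx6a (0.56) and pou3f3a (0.00), overlapped between groups. Below 0, pou3f3b and dlx5a (both -0.33) overlapped too. The summed level of the list was 641 and 874 TPM in mutant cells and 1133 and 1471 TPM in wild-type cells.

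Of the 2 tested Hey genes, whose repressors act in vessels, heart and arches, hey1 stood at 18.1 and 25.8 TPM in mutant cells and 36.1 and 27.6 TPM in wild-type cells. The groups did not overlap, but mutant sample 2 lay just under wild-type sample 2 (log2 fold change -0.53 ± 0.26, limma, adjusted p = 0.28). The gene hey2, known for its role in the artery and heart, stood at 6.70 and 8.84 TPM in mutant cells and 5.64 and 5.52 TPM in wild-type cells, without overlap and in the other direction (log2 fold change 0.40 ± 0.32, limma, adjusted p = 0.50). The gene heyl was at 0.034 and 0 TPM in mutant cells and 0.283 and 0 TPM in wild-type cells.

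Genes that handle or carry the Notch signal were not called either, except aph1b with median-ratio scaling (log2 fold change 0.81, adjusted p = 0.026) and the Groucho gene tle3a without wild-type sample 2 (-1.18, adjusted p = 0.028). Calls for these genes were looked up only in the main fit, with median-ratio scaling and with 1 sample left out. Of 57 listed, 52 were in the table under their listed names and 42 were tested, of which 0 rose and 0 fell in the main fit. At an unadjusted p under 0.05, 1 was higher and 9 were lower in mutant cells, beside the 6.05% and 14.3% of all genes tested. The median log2 fold change of the 42 was -0.42 (-0.20 without wild-type sample 1). Without overlap between groups, 25 of them were lower and 4 higher in mutant cells, beside the 34.9% and 18.2% of all genes tested. The list was chosen with earlier results of these data known.

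In the nuclear complex all 12 tested genes had negative log2 fold changes, of which those of hdac1, ctbp1 and snw1 turned positive with median-ratio scaling; the median was -0.47 (-0.22 without wild-type sample 1). The 2 with the highest mean were hdac1, a deacetylase gene, at 800.3 and 746 TPM in mutant cells and 845 and 784 TPM in wild-type cells, while ctbp1, a co-repressor gene, at 306 and 232 TPM in mutant cells and 337 and 269 TPM in wild-type cells. The genes of the DNA-binding partner, rbpja and rbpjb, did not overlap between groups: rbpja was at 18.0 and 16.6 TPM in mutant cells and 27.2 and 26.5 TPM in wild-type cells; rbpjb was at 6.56 and 6.58 TPM in mutant cells and 10.2 and 9.69 TPM in wild-type cells. Their log2 fold changes were -0.61 and -0.53 (limma, adjusted p = 0.18 and 0.35; both chosen after their values were seen).

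Among the cleavage genes, which cut ligand and receptor, 8 were tested and the signs were mixed. The gamma-secretase subunit genes aph1b and psenen had the highest means: aph1b was at 73.4 and 84.5 TPM in mutant cells and 50.7 and 50.6 TPM in wild-type cells (log2 fold change 0.63 ± 0.17, limma, adjusted p = 0.073), and psenen at 63.7 and 78.7 TPM in mutant cells and 63.3 and 63.3 TPM in wild-type cells. Genes that modify or move ligands and receptors had a median of -0.52 over 12 tested (-0.14 without wild-type sample 1 and -0.81 without wild-type sample 2), of which mib1, the ubiquitin ligase gene that lets ligands signal, was at 67.1 and 33.0 TPM in mutant cells and 109 and 65.8 TPM in wild-type cells, while epn2, an endocytic adaptor gene, at 24.8 and 23.9 TPM in mutant cells and 48.5 and 33.8 TPM in wild-type cells. The Groucho co-repressor genes, whose products bind Her proteins, had 5 of 6 below 0, of which tle2c turned positive with quantile normalization. Of these, tle2a was at 102 and 86.6 TPM in mutant cells and 130.2 and 111 TPM in wild-type cells; tle3b was at 82.7 and 70.3 TPM in mutant cells and 106 and 88.1 TPM in wild-type cells.

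Among other Hes-type and atypical ligand genes, hes6 was at 54.9 and 44.4 TPM in mutant cells and 36.3 and 40.7 TPM in wild-type cells; bhlhe40 was at 24.6 and 21.8 TPM in mutant cells and 41.6 and 31.9 TPM in wild-type cells. The proneural genes, which Her proteins repress, had 3 above and 4 below 0 of 7 tested, of which ascl1b turned positive with either other scaling, with neurog3 and atoh7 listed at 0 in every sample. The 2 with the highest mean were atoh1b, at 36.9 and 25.2 TPM in mutant cells and 19.1 and 4.61 TPM in wild-type cells; atoh1a was at 16.3 and 8.83 TPM in mutant cells and 4.90 and 1.55 TPM in wild-type cells. Neither passed (limma, adjusted p = 0.25 and 0.069), but atoh1a rose with median-ratio scaling (log2 fold change 1.91, adjusted p = 0.021), and without wild-type sample 1 both rose (atoh1b 2.49, adjusted p = 9.1e-04; atoh1a 2.36, adjusted p = 0.0077).

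**Figure D4:**
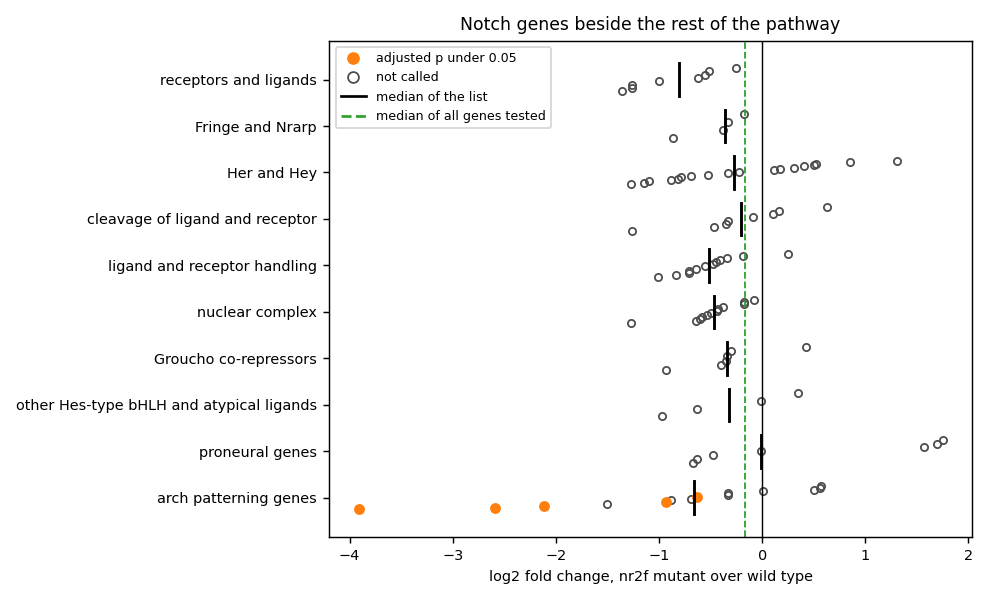
Log2 fold change, nr2f mutant over wild type, of each tested gene of the Notch groups and of the related lists; orange points passed at an adjusted p under 0.05, black bars are list medians and the dashed green line is the median of all genes tested, -0.16. The 5 orange points all belong to the arch patterning genes, and 0 of the 30 Notch genes is orange.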

How the data were processed

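The authors deposited 1 table of TPM per Ensembl transcript, 1 column per sample. Kallisto and the build GRCz11 come from the submitters' processing notes; no version or annotation release is given in the sources used here. Of 65905 transcripts 57775 had values, and 0 sample columns were left out. RNA came from sorted cells and was amplified as cDNA with the SMARTer kit, per the labels' protocols. TPM was summed per gene name and analysed as log2(TPM + 1), which understates the changes of weakly expressed genes. All genes averaging at least 1 TPM were fitted together with limma 3.58.1 in R 4.3.3 (eBayes with trend and robust), mutant over wild type, two-sided, with Benjamini-Hochberg adjustment over all 14217; SEs are limma's. The labels call the samples biological replicates. On simulated data for this comparison (14217 genes, 200 changed), the fit called 28% of the 2-fold and 83% of the 4-fold changes, with 5.93% of its calls on unchanged genes. The changed genes were drawn from those with a mean log2(TPM + 1) over 2, and the spread from limma's own fit with normal errors. These rates therefore do not cover weaker genes or genes with an outlying spread.

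The Notch genes and lists were chosen with earlier results of these data known. Full values are given for genes with an unadjusted p under 0.05 and the 2 most abundant of each role, and values in brief for the others. Of other lists, the called genes (at most 4) or the 2 most abundant are given. The cell type lists do not keep to this: most of their called genes are given by count only. Some genes, among them kdrl, cdh5 and sox2, were picked by hand. Gene order came from the RefSeq table of GRCz12tu, in which 39 of 39 symbols matched. Alternatives were other pseudocounts, filters, scalings, moderation, gene IDs, a replicate block and leaving out each sample.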

Additional observations from a re-analysis of the deposited data

How the results depend on the processing

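The counts of Notch genes that rose (0) and that fell (0) were the same under every alternative run except 2: her9 rose with median-ratio scaling (a count of 1; log2 fold change 0.69, adjusted p = 0.042), and her4.2 and her4.3 fell with the replicate block (a count of 2; log2 fold changes -1.14 and -1.27, adjusted p = 0.024 and 0.035). With 1 sample left out both counts ran from 0 to 0, and the median log2 fold change of the Notch genes from -0.69 to -0.32; there limma takes the lone sample to vary like the other group. With the replicate block, alternatives added after seeing the data also called the summed her4 copies (limma, -1.10, adjusted p = 0.017) but not the summed her15 copies (adjusted p = 0.13). With the block 12 Notch genes were lower at an unadjusted p under 0.05, against 5 without it, and 4 were higher either way. Of all 14217 genes tested, 3487 reached an unadjusted p under 0.05 in either direction with the block, and 2900 without. At an adjusted p under 0.05, 565 genes of the whole table were called with the block and 580 without. The samples share only a number: across genes, the differences between replicates of the mutant and wild-type groups had a correlation of -0.01.

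The count of all genes that changed was 580, 4 with no filter on low values, 0 with limma without trend and robust (2531 at an unadjusted p under 0.05), and 110 to 720 with 1 sample left out (110 without mutant sample 2, 195 without mutant sample 1). Of 30 Notch genes, 22 kept their sign in every alternative. Signs turned for her8.2 with a pseudocount of 0.1 TPM (-0.033) and for jag2b (0.088) and nrarpb (0.0087) with quantile normalization. With 1 sample left out, log2 fold changes ran from -0.67 to 0.23 for her15.1, -0.70 to 0.034 for her3, -0.44 to 0.077 for nrarpb, -0.22 to 0.45 for her6, -0.70 to 0.19 for jag2b, -0.67 to 0.0031 for lfng and -0.77 to 0.0026 for nrarpa. The cause was not tested. Depth is unknown from TPM, and 2 samples per group limit what could be called.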
